A study of Xenopus laevis with 13 samples.

Results

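The maternal transcriptome described here comprises the gene models with at least 1 FPKM (read fragments divided by transcript length in kilobases and by a depth factor of the library) in every one of 5 single fertilized eggs of Xenopus laevis. There were 12919 such gene models among 54110 in the deposited table, and 11882 of them carried a gene name. The 5 eggs came from 1 female, with no genotype or treatment named in the labels beyond hormone priming, so the spread between females is not covered: the female was given 700 units of hCG (human choriogonadotropin), its eggs were fertilized in vitro, and each egg was dejellied and frozen in a tube of its own 60 min after fertilization, at NF stage 1, when it had turned but not cleaved. Ribosomal RNA was removed from the total RNA of each egg before single-end sequencing. The wider series also holds 5 single embryos and 3 technical libraries of a later stage, which are not used here. All 5 eggs form 1 group with no contrast, so every value below is a description, and the spread between eggs holds both egg and library differences, since no egg was sequenced more than once.

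An egg at this stage is a single cell that does not yet transcribe its own genome. What it holds is RNA that the oocyte made and stored during growth, packed with storage proteins and released for translation in steps that are timed by the length of the poly(A) tail. In Xenopus this store is known to carry the first rapid cleavage cycles, to supply ribosomes, mitochondria and chromatin for the many new cells of the blastula, and to hold localized RNAs of the germ plasm and of the vegetal and animal poles that set up the germ line and the body axes. FPKM is relative to the library, so a larger amount of one RNA and a smaller amount of the others cannot be told apart, and the libraries were made from total RNA by random priming, so a value does not show poly(A) tail length or translation.

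Read depth, recovered from the steps between low FPKM values, was 1575016, 1724181, 1505592, 1781013 and 2921875 reads on gene models in eggs 1 to 5. Both extremes belonged to libraries that stood apart. Egg 5 devoted 34.8% of its depth to its top 5 gene models, where each of the others gave between 1.51 and 2.81% to its own top 5, and outside those models egg 5 held 1904850 reads. Egg 3 had the lowest depth and the fewest gene models at 1 FPKM or more, 15528, against 16714 to 17382 in the others. The median member was covered by 55.6 to 77.0 reads per egg, and 1607 members had fewer than 10 reads in their lowest egg. At a length of 1500 bases, a count of 0 allows up to 1.03 FPKM in egg 3 and between 0.719 and 0.916 FPKM in the others (3 reads, counting error only).

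Where all names of a model had to be in a list, the values matched the label of an egg before zygotic transcription, with few transcripts of other cells. Of 101 gene models of genes that are switched on in the early Xenopus embryo, 72 stood at 0 FPKM in all 5 eggs and 5 were members, among them id2 at 41.1 to 93.8 FPKM, bambi at 4.12 to 54.9 FPKM, snai1 at 3.54 to 12.8 FPKM and hes4 at 1.11 to 14.5 FPKM. Counting models with any name in this list gave 15 members, and the names of the gene model file gave 10. A nodal1 model of this list was no member but reached 12.2 FPKM in egg 5. Oocyte markers were members in 26 of 28 models, with a summed level of 2106 to 2730 FPKM. Among 42 models of ovarian follicle and theca markers, 35 were at 0 in every egg and the summed level was 69.0 to 117 FPKM, most of it cyp17a1, a steroid hydroxylase, at 60.5 to 113 FPKM. The other member was nr5a1, a regulator of steroid synthesis, at 3.63 to 8.45 FPKM. The steroid enzyme genes cyp11a1, cyp19a1 and hsd3b1 of this list were at 0 in every egg. From which cells the cyp17a1 RNA came was not tested. Blood markers summed to 6.69 to 21.6 FPKM with 14 of 20 models at 0 and slc4a1, an anion exchanger of red cells, as their only member. Liver markers summed to 1.83 to 17.4 FPKM with no member and 27 of 35 models at 0. Gene models for transcripts of the mitochondrial genome were looked for under 26 names and none was found, so mitochondria are described by nuclear genes only.

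Abundance spanned more than 5 orders of magnitude, with a few short models far above the rest. The median member averaged 13 FPKM, and the middle 50% lay between 6.14 and 30.3 FPKM. Only 881 members reached a mean of 100 FPKM and 28 reached 1000 FPKM. Nearest to the rule's limit, shf and col5a2 had a lowest egg of 1.00 FPKM, while limd2 and pfkfb1, at 0.999 FPKM in their lowest egg, fell just outside. Between 1 and 2 FPKM in the lowest egg lay 1717 members, and 1168 further models had a lowest egg between 0.5 and 1 FPKM. The 100 most abundant members held 52.3, 37.7, 53.1, 44.5 and 91.9% of the summed FPKM in eggs 1 to 5, a mean of 55.9% ± 21.1 (SD, n = 5). Among members of at least 500 bases, the corresponding share was 14.9, 13.8, 15.9, 14.4 and 25.8%, so the concentration lay mostly in short models. FPKM divides by transcript length, and 47 of the 100 most abundant members were under 500 bases, with a median length of 558.5 bases against 2075 over all members.

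**Figure D1:**
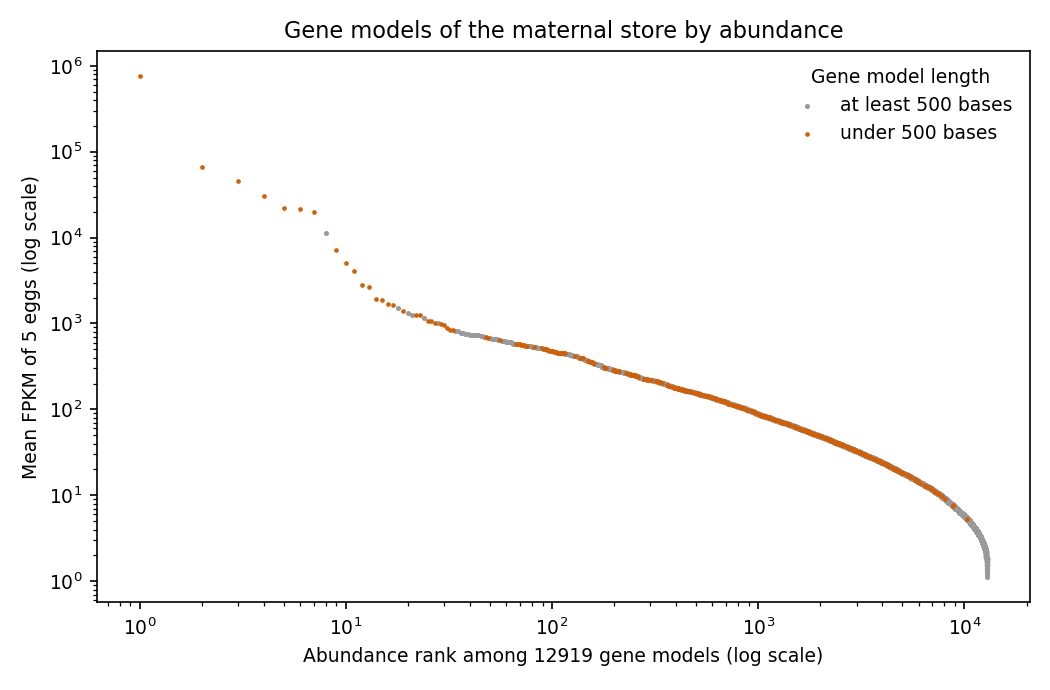
Mean FPKM of the 5 eggs (log axis) against the abundance rank of each of the 12919 members (log axis), with the 405 models under 500 bases in orange, drawn on top, and the 12514 longer models in grey. The curve falls steeply over the first ranks, where 9 of the 10 points are orange, crosses 1000 FPKM at rank 28 and 100 FPKM at rank 881, and drops fastest again near the limit of 1 FPKM.

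The models at the very top were mostly short and mostly without a gene name. Of the 10 most abundant members, 8 were unnamed and 9 were shorter than 500 bases, and unnamed members together held 47.6, 32.4, 47.7, 39.1 and 80.2% of the summed FPKM in eggs 1 to 5 but only 6.89 to 27.2% of the reads. The most abundant model of all, with 109 bases on scaffold 000099319 (470699 to 471821, JGI 7.1), stood at 261518, 86330.5, 259407, 148710 and 3061530 FPKM. The gene model file gives names that differ from those of the expression table for 3991 members and names 342 of the 1037 unnamed members, including 17 of the 25 most abundant. Under these names, which were not checked by sequence, the model of 109 bases and one of 117 bases are labelled slc41a2, a magnesium transporter gene, while several others of the top models are labelled csdc2 and ybx1, genes of cold-shock-domain proteins. The cold-shock domain marks the protein family of the Y-box factors, which coat stored mRNA in oocytes. The models that the expression table itself names slc41a2 were low, at 11.5 ± 4.096 FPKM over 3183 bases and 6.72 ± 2.60 FPKM over 2809 bases (SD, n = 5 each).

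A model labelled csdc2, of 252 bases on scaffold 000037414 (233183 to 233491), stood at 21148, 16384, 32448, 19650 and 21996 FPKM in eggs 1 to 5. A second model with this label, also of 252 bases, on scaffold 000082179 (749330 to 749638), had 21122, 15523, 26608, 17191 and 18569 FPKM. Another with this label, of 309 bases, had 8287, 7473, 9839, 6716 and 3466 FPKM. All 3 were highest in egg 3, and the model of 309 bases was lowest in egg 5. Whether these models share a sequence and its reads was not tested, so they may not be separate genes. In contrast, a model of 407 bases labelled ybx1 had 4805, 2661, 7849 and 5206 FPKM in eggs 1 to 4 and 204725 FPKM in egg 5. The models that the expression table itself names for the egg Y-box protein were far lower, with ybx2 at 14.7, 19.1, 6.55, 19.8 and 8.35 FPKM. Further down the unnamed models, 2 carried the name ccna1, the A-type cyclin of the early embryo: a model of 421 bases had 916, 943, 1200.2, 1163 and 866 FPKM, and a model of 1799 bases and 9 exons on scaffold 000091366 (786788 to 795530) had 397, 390, 867, 428 and 466 FPKM. Both were again highest in egg 3, but the shorter (789932 to 791592) lies within the span of the longer, so they are not separate observations. Models labelled cldn6.1, a claudin of tight junctions, averaged 1249.9 ± 322 FPKM at 289 bases and 460.2 ± 249.6 FPKM at 730 bases (SD, n = 5 each). Their spans overlap as well (178961 to 184518 and 183875 to 186243 on scaffold 000102068).

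Among named members of at least 500 bases, the most abundant were genes of iron storage, carbohydrate metabolism and antioxidant defence. A ferritin model (na:fthl17:mgc68606, scaffold 000139674, 1688119 to 1691861) led with 1703, 1503, 1838, 1558 and 946 FPKM, followed by gapdh, the glycolytic glyceraldehyde-3-phosphate dehydrogenase, with 1792, 1134, 1454, 1301 and 975 FPKM. Next came gyg1, glycogenin, the primer of glycogen synthesis, with 1190.3, 1493, 1228, 1379 and 1070.1 FPKM. The peroxidase prdx2 had 1026, 939, 1375, 965 and 774 FPKM. These models were lowest in egg 5 in each case, and no egg lay 2-fold away from all others. A second ferritin model averaged 825 ± 182 FPKM, a second gapdh model (gapdh:myh4) 694 ± 70.4 FPKM and a second gyg1 model 625 ± 149 FPKM (SD, n = 5 each), so both models of each of these names stood among the 25 most abundant. The same held for pcna, the sliding clamp of DNA polymerase, at 724 ± 147 and 667 ± 90.9 FPKM, and for the ribosomal protein gene rpl15 at 732 ± 138 and 660.4 ± 144 FPKM.

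The other leading models covered energy buffering, the cytoskeleton, transport and the embryo's own regulators. The creatine kinase gene ckb, whose product buffers ATP, had 1138, 758, 571, 806 and 411 FPKM, the widest spread between eggs among these except for avd.2 (CV 37.1 and 38.2%). The gene avd.2 is named for avidin, the biotin-binding protein of eggs, and had 673, 604, 1066, 454 and 466 FPKM. The RING finger gene mkrn3 had 744, 564, 1197, 650.0 and 725 FPKM, and a plin2 model (plin2:loc494638), for the coat protein of lipid droplets, had 499, 561, 1071, 557 and 569 FPKM. In avd.2, mkrn3 and plin2, egg 3 was the highest, at 1.58 to 1.88 times the next egg. Mediator subunit med18 averaged 746 ± 144 FPKM, the prostaglandin synthase hpgds 741 ± 99.7 FPKM, the phosphate carrier slc25a3 (slc25a3:serpinf1:noa1) 741 ± 173 FPKM, the ATP synthase subunit atp5g3 726 ± 79.0 FPKM, the initiation factor eif1b (eif1b:ccdc50) 719 ± 112 FPKM, the cytochrome oxidase subunit cox6a1 679 ± 122 FPKM, alpha-tubulin (tuba4a:tuba1a:loc397931:ivns1abp:tuba3c) 761 ± 130.0 FPKM, beta-actin (sun2:actb) 647 ± 96.3 FPKM and rps25:ldhb 769 ± 159 FPKM (SD, n = 5 each). Of 291 named members under 500 bases, 19 ranked above the 25th of these longer models.

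**Figure D2:**
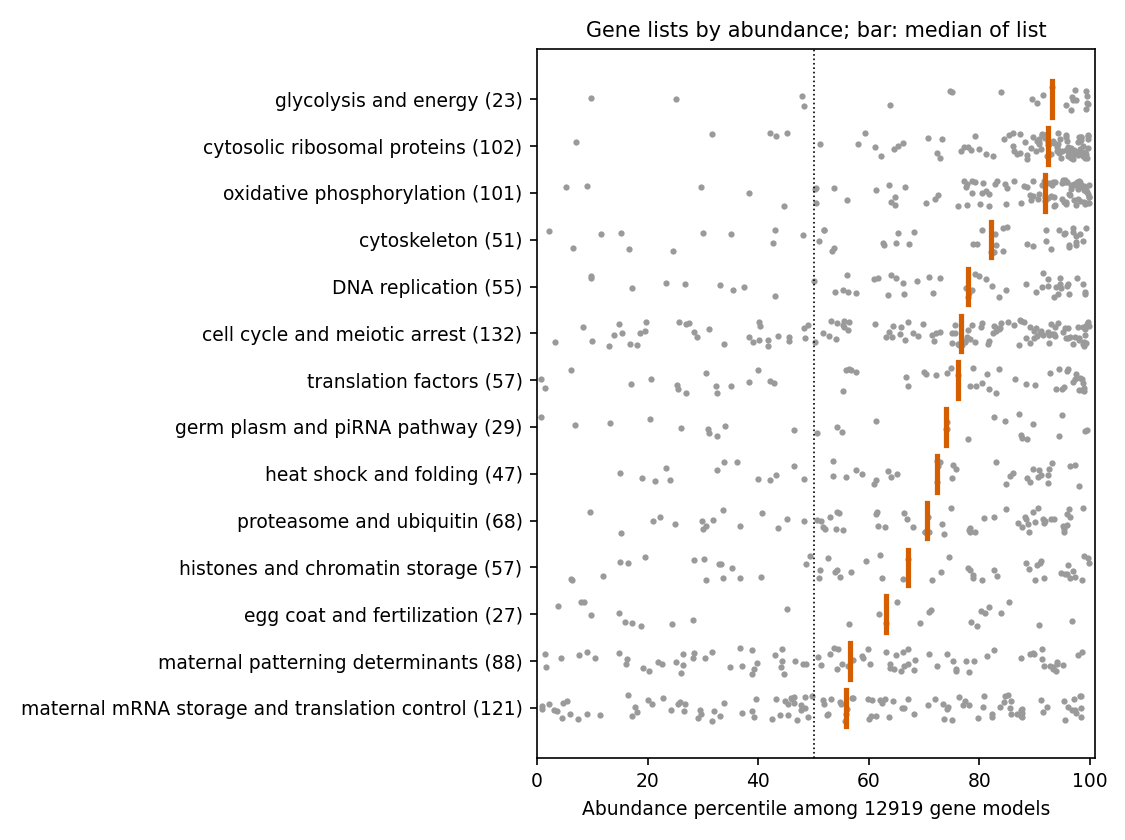
Abundance percentile among the 12919 members (0 lowest, 100 highest) for the members of each of the 14 gene lists, with a bar at the median of each list and a dotted line at 50. Medians run from 55.9 for mRNA storage and translation control to 93.2 for glycolysis and energy, and all 14 lie above 50.

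Gene lists were used to read the store by function. Together, 14 lists held 1450 gene models, of which 950 were members with a median percentile of 77.2, where 50 is the median of all members. These lists were chosen by function with earlier results of these data known, and they lean towards genes that most cells express strongly, so a median above 50 describes the lists and sets them apart from no other list. Their members accounted for 16.2, 15.9, 16.4, 15.9 and 14.0% of the summed FPKM of members of at least 500 bases in eggs 1 to 5.

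Energy metabolism ranked highest. The glycolysis and energy list, which also holds genes outside glycolysis, had a median percentile of 93.2 over 23 members of 49 models, although 20 models were at 0 in all eggs. Its most abundant member was ckb, given above, while the gapdh and gyg1 models given above are not on this list. Of the other members, tpi1, triosephosphate isomerase, had 581, 504, 848, 530.5 and 627 FPKM. The gene pgk1, phosphoglycerate kinase, had 568, 613, 405, 574 and 457 FPKM, and eno1, enolase, had 633, 534, 465, 479 and 546 FPKM. The gene slc25a5, which exchanges ADP and ATP across the inner mitochondrial membrane, was even between eggs at 514, 486, 601, 553 and 559.8 FPKM. Other enzymes were low: pfkm, phosphofructokinase, averaged 3.59 ± 1.21 FPKM and ldha, lactate dehydrogenase, 6.14 ± 1.35 FPKM (SD, n = 5 each). The far more abundant model rps25:ldhb given above also carries a lactate dehydrogenase name. It is off this list because not all its names belong to it. Nuclear genes of oxidative phosphorylation were members in 101 of 123 models at a median percentile of 91.9. Complexes II to V stood at a median percentile of 95.6 and complex I, NADH dehydrogenase, at 80.6. The alpha subunit of ATP synthase, atp5a1, had 433, 426, 463, 381 and 465 FPKM in its first model and 410.4, 383, 549, 348 and 389 FPKM in its second. The beta subunit atp5b had 783, 551, 641, 589 and 471 FPKM in a model of 1818 bases. Short models of this list were among the highest named models of all, with cox7a2 at 1887 ± 662 FPKM over 279 bases and atp5j2 at 1253 ± 482 FPKM over 258 bases.

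The translation machinery was the other abundant class. Cytosolic ribosomal proteins were members in 102 of 137 models at a median percentile of 92.4, with 53 of them among the 1000 most abundant members. The most abundant models of the list beside rpl15 differed in spread: rpl23 had 874, 448, 1075, 583 and 421 FPKM over 478 bases (CV 41.9%) and rps12 had 624, 752, 517, 749 and 576 FPKM over 226 bases (CV 16.3%). Further down, rpl3 was even between eggs, with 294, 264, 275, 234 and 248 FPKM in its first model and 209, 232, 225, 255 and 235 FPKM in its second, as was rpl19 with 336, 348, 360.0, 334 and 388 FPKM. Translation factors ranked lower, at a median percentile of 76.2 over 57 members. The gene eef1d, a guanine nucleotide exchange factor of elongation, was the steadiest of the abundant ones, with 448, 409, 398, 418 and 427 FPKM and a CV of 4.53% against 3.86% for counting error. Its partner subunit eef1b2 had 353, 429, 466, 425 and 306 FPKM, and the cap-binding complex helicase eif4a1 305, 327, 418, 307 and 223 FPKM. The elongation factor eef2.1 had 276, 261, 306 and 179.7 FPKM in eggs 1, 2, 4 and 5 and 153 FPKM in egg 3. By contrast, a short eef1a1 model of 333 bases, for the tRNA-delivering elongation factor, differed widely at 615, 473, 129, 325 and 284 FPKM.

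Cell cycle genes were stored at high levels, led by the B-type cyclins and the regulators of meiotic exit. The list of 172 models held 132 members at a median percentile of 76.7, and cyclins and kinases alone stood at 88.4. Cyclin B, the activator of the mitotic kinase, had 596, 499.5, 873, 601 and 475 FPKM for ccnb1.2 and 416, 421, 755, 443 and 379.8 FPKM for ccnb1. The gene ccnb2 had 201, 209, 417, 193 and 173 FPKM and a named ccna1 model of 2348 bases 457, 360.5, 737, 453 and 391 FPKM. In these 4 cyclin models, egg 3 was the highest at 1.45 to 1.99 times the next egg. Their kinase cdk1 did not follow, with 134, 127, 69.3, 137 and 102 FPKM in its first model and 116, 99.1, 112, 126 and 82.9 FPKM in its second.

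The small kinase-binding protein cks2:cks1b, at 270 bases, had 466, 577, 1179, 723 and 514 FPKM, again highest in egg 3. The gene spdyc, a Speedy protein that activates cyclin-dependent kinases, was more even at 409, 438, 514, 397 and 482 FPKM. For the anaphase-promoting complex, the activator cdc20 had 358, 293, 564, 390.1 and 369 FPKM in its most abundant model, and a short model of fzr1, the other activator, had 916, 1630.4, 773, 973 and 649 FPKM over 205 bases. The gene fbxo43, known as Emi2 and required for the metaphase arrest of the unfertilized egg, had 67.0, 62.2, 97.6, 84.1 and 62.2 FPKM. The inhibitory kinase wee2:wee1, which slows the first cycle, had 79.1, 103, 117 and 115 FPKM in eggs 1, 2, 4 and 5 and 247 FPKM in egg 3. The gene aurka, Aurora kinase A, was among the steadier ones with 156, 174, 164, 176 and 139.9 FPKM. The lowest members of the list were kif15, a spindle kinesin, at 2.51 ± 0.795 FPKM and the ribosomal S6 kinase rps6ka3 at 3.39 ± 0.739 FPKM (SD, n = 5 each).

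DNA replication and chromatin assembly were supplied alongside. Of 66 replication models, 55 were members, at a median percentile of 78.0. The gene cdc6, which loads the replicative helicase, had 242, 290.1, 465, 332 and 344 FPKM, and the helicase subunit mcm7 had 174, 174, 308, 217 and 215 FPKM. Single-strand binding protein rpa3 had 482, 387, 499.5, 448 and 356 FPKM, and the pcna-binding factor kiaa0101 had 646, 361, 613, 307 and 367 FPKM. The polymerase subunit pold2 was even at 180.2, 157, 152, 152 and 148 FPKM. The histone list had 57 members of 97 models at a median percentile of 67.0, and its core and linker variants stood at 95.6. A core histone model, hist1h3g, reached 2387, 1749.8, 2432, 1926 and 1119.7 FPKM over 492 bases. The replacement histone h3f3b:h3f3a had 691, 710.5, 1356, 775 and 622 FPKM, h2afv:h2afz had 389, 306, 601, 403 and 316 FPKM, and h1foo, the linker histone of the oocyte, had 105, 121, 222, 135 and 125 FPKM. The gene slbp, which binds the stem-loop of histone mRNA, had 239.7, 275, 472, 282 and 241 FPKM. Each of these histone models, and slbp, was highest in egg 3. The gene npm2, nucleoplasmin, which stores histones H2A and H2B in the egg, had 243, 179, 168 and 176 FPKM in eggs 1, 2, 4 and 5 and 129 FPKM in egg 3 in its abundant model of 817 bases. A lower npm2 model of 889 bases had 27.7, 11.6, 14.9 and 18.1 FPKM in eggs 1, 2, 4 and 5 and 35.8 FPKM in egg 3, so the first was lowest and the second highest in egg 3.

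Genes that control the stored mRNA itself were present widely but at middling levels. The list had 121 members of 175 models and a median percentile of 55.9, close to that of all members. Storage particle genes stood at 68.2, deadenylation and decay at 62.2 and polyadenylation control at 44.6. Within polyadenylation control the exception was cpeb1, which binds the cytoplasmic polyadenylation element and times translation in the maturing oocyte. It had 174, 154, 299.9, 183 and 214 FPKM in its first model and 159, 169, 288, 149 and 221 FPKM in its second. Both cpeb1 models were highest in egg 3, with the other eggs between 149 and 221 FPKM. The gene zar1l, an oocyte RNA-binding protein, was steady, with 279, 249, 305, 238 and 306 FPKM over 1184 bases and 297, 212, 278, 277 and 284 FPKM over 1230 bases. The decay factors zfp36l2.2 and zfp36l2.1, which bind AU-rich elements, had 221, 235, 429, 299 and 239.8 FPKM and 216, 191, 485, 304 and 221 FPKM. Of the storage particle proteins, lsm14b had 221, 163, 113, 203 and 148 FPKM and patl2 135, 147, 94.0, 171 and 126 FPKM, and both were lowest in egg 3. The gene btg4, an adaptor of the deadenylase known from the mouse for clearing maternal mRNA, had 41.8, 28.1, 26.4, 56.8 and 61.4 FPKM. The RNA helicase ddx6, abundant as a protein of storage particles, was low as mRNA at 6.48 ± 1.74 and 4.97 ± 1.46 FPKM (SD, n = 5 each). At the lowest levels stood tnrc6b at 1.83 ± 0.51 FPKM and the Argonaute gene eif2c3 at 1.85 ± 0.389 FPKM, both of the microRNA pathway.

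Germ plasm RNAs, which are inherited by the primordial germ cells, were found over a wide range of levels. The list had 29 members of 48 models at a median percentile of 74.0. The gene dnd1, dead end, which protects germ cell mRNA, led with 606, 517, 661, 521 and 429 FPKM, and plin2 followed with 518, 380.0, 486, 494 and 402 FPKM. The gene ddx25, a germ plasm RNA helicase known in Xenopus as DEADSouth, had 106, 105, 101 and 106 FPKM in eggs 1, 2, 4 and 5 and 171 FPKM in egg 3, so that 4 eggs coincided and the gap to egg 3 made up 0.937 of the range. The gene spire1, an actin nucleator, had 141, 106, 168, 108 and 114 FPKM. The vegetally localized dazl had 49.5, 43.2, 87.8, 60.2 and 53.6 FPKM, grip2 had 43.8, 62.9, 79.5, 53.3 and 49.5 FPKM, and trim36, a ubiquitin ligase required for cortical rotation, had 28.8, 31.0, 89.0, 54.4 and 43.3 FPKM. Egg 3 was highest in all 3. Genes of the piRNA pathway, which silences transposons in the germ line, were lower, with a median percentile of 52.9 over 12 members: piwil2 averaged 7.37 ± 2.27 FPKM, mael 28.8 ± 5.96 FPKM, tdrd9 3.16 ± 1.45 FPKM and the helicase ddx43 1.82 ± 0.564 FPKM (SD, n = 5 each). The model of velo1, a germ plasm organizer of Xenopus, was at 0 FPKM in every egg.

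Maternal determinants of the body plan were members in 88 of 180 models at a median percentile of 56.7. The HMG-box factor sox3 led with 230.4, 377, 374, 332 and 250.4 FPKM. The gene tdgf1:tdgf1.3, an EGF-CFC coreceptor of Nodal and Wnt signalling, had 233, 253, 199, 237 and 194 FPKM in its longer model and 173, 146, 93.7, 131 and 109 FPKM in its shorter. The gene ctnnb1, beta-catenin, the mediator of dorsal axis formation, had 102, 113, 154, 114 and 82.0 FPKM. Its vegetally localized upstream ligand wnt11b had 75, 73.8, 71.4, 78.6 and 51.0 FPKM. The gene foxh1, the Nodal-responsive transcription factor, had 113, 112, 88.4, 118 and 87.1 FPKM, and foxi2, an ectodermal activator, had 74.7, 98.3, 80.5, 86.4 and 62.6 FPKM. The median CV of the list was 25.3%, against 29.8% over all members, and its summed level had a CV of 6.55% between eggs. The lowest were apc, a scaffold of the beta-catenin destruction complex, at 2.12 ± 0.876 FPKM and lin28b at 2.06 ± 0.633 FPKM (SD, n = 5 each). A nodal1 model was above 10 FPKM in eggs 1, 2 and 5 (11.3, 10.5 and 12.2 FPKM) and at 0.438 and 1.34 FPKM in eggs 3 and 4, and so was no member.

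Genes of the egg coat and of fertilization ranked at a median percentile of 63.1 over 27 members of 61 models, and all 5 zona pellucida models of this list were members. The gene zp3, which in the frog forms the vitelline envelope with its relatives, had 158, 143, 279.7, 130.1 and 149.6 FPKM. The gene zpd had 60.4, 87.8, 74.4, 66.6 and 91.6 FPKM, zpax 22.9, 16.5, 34.4, 22.1 and 25.8 FPKM and zpy1 22.9, 22.5, 10.3, 17.7 and 19.3 FPKM. A model named zp2:zpy1 had 33.0, 28.0, 5.31, 19.1 and 11.5 FPKM. Both zpy1 and zp2:zpy1 were lowest in egg 3, where zp3 and zpax were highest. The gene src, the tyrosine kinase of egg activation, had 65.9, 49.1, 39.2, 40.9 and 40.0 FPKM and was highest in egg 1. The gene endou, of the endoribonuclease family, had 44.8, 53.9, 71.0, 47.1 and 39.7 FPKM. The tetraspanin cd9, needed for sperm fusion in the mouse, had 34.5, 35.0, 75.2, 23.8 and 24.5 FPKM. The gene itpr1, the receptor that releases calcium at fertilization, was low in both of its long models, at 3.41 ± 0.784 and 3.31 ± 0.793 FPKM (SD, n = 5 each).

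The remaining lists cover the upkeep of the cytoplasm. Cytoskeletal genes stood at a median percentile of 82.1 over 51 members, with tmsb4x, an actin-sequestering peptide, at 593, 385, 804, 354 and 247 FPKM and actr3, a subunit of the actin-nucleating Arp2/3 complex, at 367, 328, 437, 299 and 244 FPKM. The actin model actb:actg1 had 348, 284, 207, 285 and 191 FPKM, and the actin-severing cfl1 267, 173, 269, 199 and 155 FPKM. The gene tubb, a beta-tubulin, was steadier with 115, 114, 105, 124 and 131 FPKM. Proteasome and ubiquitin genes stood at 70.6 over 68 members. The gene psmd13, a subunit of the proteasome lid, was even at 353, 279.7, 321, 307 and 369 FPKM. The gene psmb3, of the proteasome core, had 191, 82.8, 184, 81.6 and 205 FPKM and the polyubiquitin gene ubc 187, 115, 195, 136 and 175 FPKM. The other polyubiquitin gene, ubb, was far less even, with 126, 56.5, 124 and 75.1 FPKM in eggs 1, 2, 4 and 5 and 410.4 FPKM in egg 3. Chaperones stood at 72.3 over 47 members, with the mitochondrial co-chaperonin hspe1 at 208, 172, 413, 226 and 236 FPKM, the constitutive hspa8 at 209, 216, 169.9, 207 and 206 FPKM, the co-chaperone dnaja1 at 156, 191, 159, 184 and 126 FPKM, the prolyl isomerase ppib at 88.0, 120.3, 92.9, 92.7 and 107 FPKM, and hspa5 of the endoplasmic reticulum at 50.2, 49.5, 46.0, 49.0 and 53.0 FPKM. Their summed level had a CV of 2.81% between eggs, the lowest of the 14 lists.

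**Figure D3:**
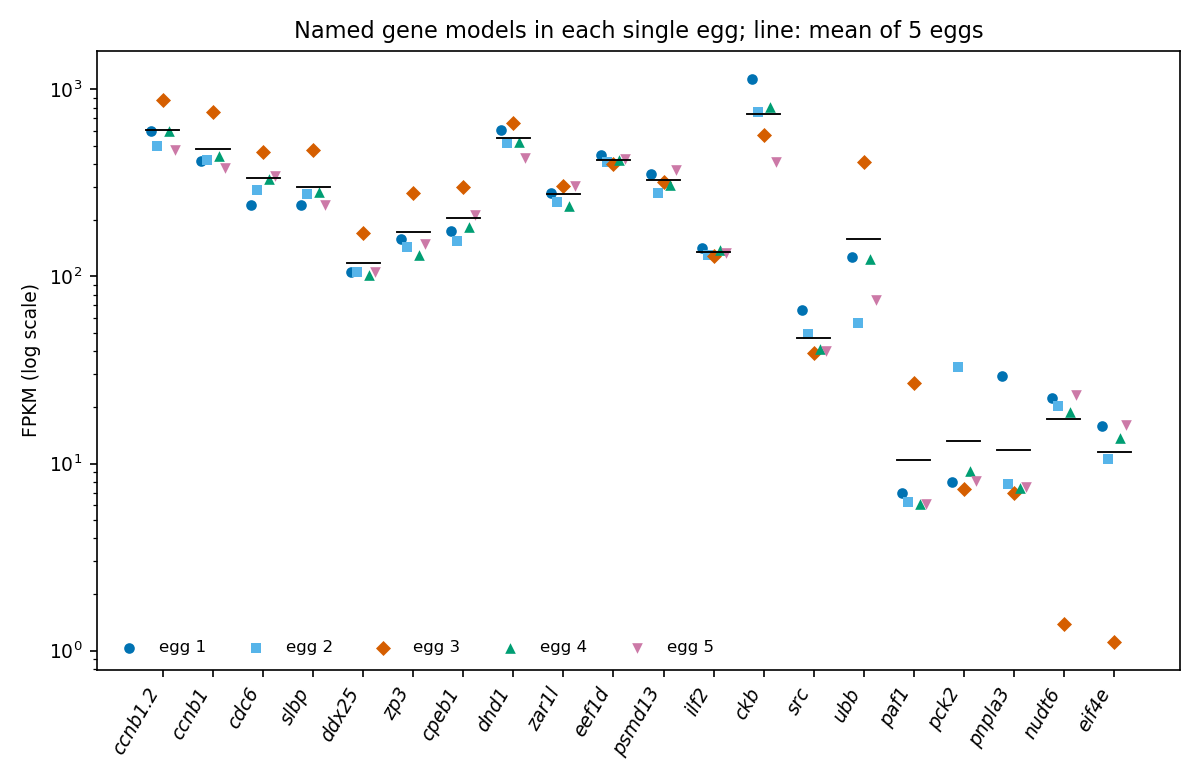
FPKM in each of the 5 eggs (log axis) for 20 named gene models, ordered by theme, with a symbol for each egg and a line at the mean. Egg 3 is the highest point in ccnb1.2, ccnb1, cdc6, slbp, ddx25 and zp3, all 5 eggs nearly coincide in eef1d and ilf2, and single eggs stand away in ubb, paf1, pck2, pnpla3, nudt6 and eif4e.

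Spread between eggs exceeded counting error for most members. The median CV was 29.8% over the 12919 members, against 12.2% for the counting error at the recovered depth, and 68.6% of members had a CV over 2 times their counting CV. For 1826 members with at least 1000 reads summed over the eggs, the median CV was 19.3% against 5.7%, and 87.5% lay over 2 times counting. Over the 7420 members with a mean of at least 10 FPKM and at least 100 reads summed over the eggs, the median was 25.9%. These are called well covered below, although a single egg can hold few of the reads. The spread was lowest without egg 3: the median CV over all 12919 members was then 24.99%, while leaving out any other egg gave 29.1 to 30.7%. The eggs were closely scaled to each other, with median-of-ratios factors between -0.01 and 0.06 on the log2 scale.

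Some genes hardly differed between eggs in their measured values. They were picked as the lowest CVs among 6988 named members with a mean of at least 10 FPKM and at least 100 reads summed over the eggs. The mitochondrial carrier slc25a20.2:slc25a20, which imports acylcarnitines, had the lowest CV of the well covered named members, 3.27%, with 26.6, 28.6, 27.4, 28.7 and 28.4 FPKM. Mediator subunit med24 had 54.2, 53.2, 58.4, 55.3 and 55.9 FPKM (CV 3.52%), and the heparan sulfate sulfotransferase ndst2 had 13, 13.9, 14.2, 13.2 and 13.4 FPKM (CV 3.53%). The gene neurl4, a regulator of centrioles, had 69.3, 72.8, 72.5, 74.5 and 68.4 FPKM in its model of 4366 bases (CV 3.54%). In slc25a20.2 and ndst2 the CV was below the counting CV of 13.7 and 10%. At the recovered depth, the CVs of med24 and neurl4 did not clearly exceed counting error either. The evenness and the order of these models are therefore within counting error. Deeper covered models were as even: ilf2, an RNA-binding protein, had 142, 130.0, 129, 139 and 133 FPKM (CV 4.13%, counting 3.52%) and ptgfrn, a tetraspanin partner, had 162, 174, 182, 172 and 172 FPKM (CV 4.22%, counting 3.02%). The other genes of this group were c4bpa, slc25a28, rnf121 and wdr61, with CVs of 3.67 to 4.31%.

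The most variable well covered models were far above in egg 5 or egg 3, except for cyb5b. The models of egg 5 are given further on. In the small GTPase model ralb:kras, the values were 86.3 FPKM in egg 3, 29.3 FPKM in egg 2 and 5.78 to 9.41 FPKM in the others (CV 125%). The gene znf706 had 90.4 FPKM in egg 3 and 10.9 to 23.8 FPKM in the others, smim14 187 FPKM in egg 3 and 31.5 to 48.7 FPKM in the others, and tmem123 148 FPKM in egg 3 and 13.2 to 56.8 FPKM in the others. The same order held in vps37b, a subunit of the ESCRT-I sorting complex, with 50.8 FPKM in egg 3 and 5.65 to 19.9 FPKM in the others, and in tango2 with 29.4 FPKM in egg 3 and 2.32 to 10.2 FPKM in the others. In cyb5b, mitochondrial cytochrome b5, it was egg 2 that stood out, with 41.5 FPKM against 2.87 to 12.7 FPKM.

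**Figure D4:**
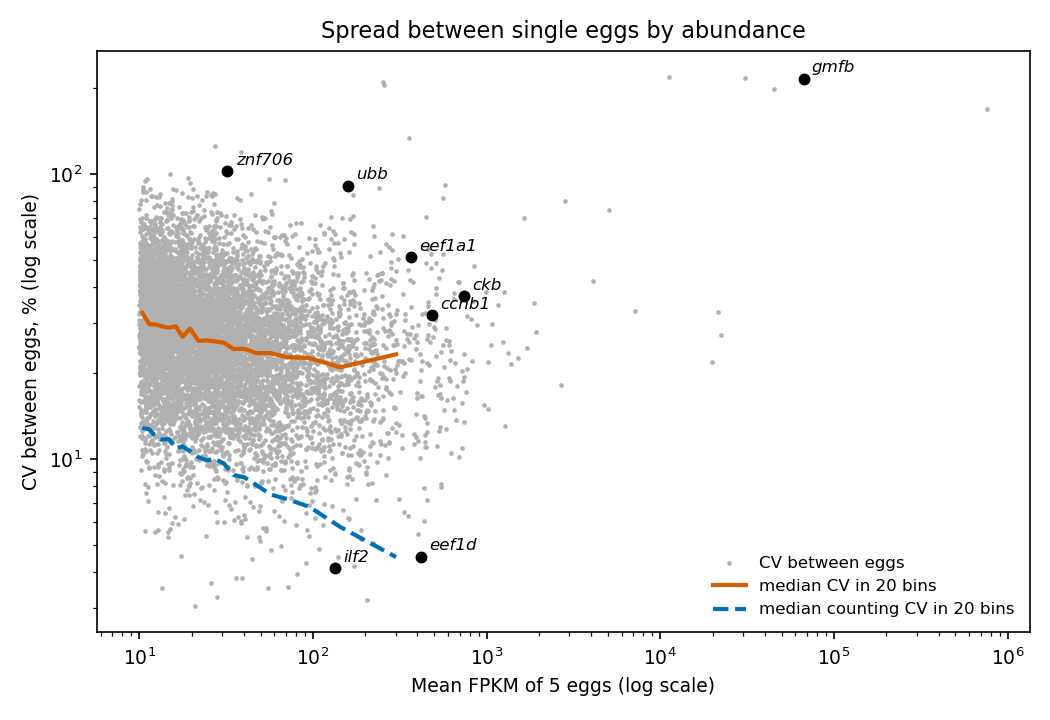
CV between the 5 eggs in percent (log axis) against mean FPKM (log axis) for 7420 members with a mean of at least 10 FPKM and at least 100 reads summed over the eggs, with the medians of the CV and of the counting CV in 20 bins of abundance as lines. The CV line stays above the counting line throughout, eef1d and ilf2 lie near the lower edge, and gmfb has the highest CV of the labelled genes.

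In 1757 members, a single egg lay at least 2-fold above or below each of the other 4. Egg 3 accounted for most of them, with 335 members above (2.59%) and 631 below (4.88%). Egg 1 stood above in 85 (0.658%) and below in 253 (1.96%), and egg 2 above in 84 (0.65%) and below in 228 (1.76%). Egg 4 stood above in 24 (0.186%) and below in 88 (0.681%), and egg 5 above in 26 (0.201%) and below in 84 (0.65%). These shares are of the 12919 members. In each egg more members stood below than above, and the count depended on the fold chosen, with 4688 members at 1.5-fold and 477 at 3-fold.

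Well covered genes with a single high egg were of many functions. The gene pnpla3, a lipase of lipid droplets, had 29.3 FPKM in egg 1 and 6.92 to 7.80 FPKM in the others. The gene pck2, the mitochondrial enzyme of gluconeogenesis, had 33.0 FPKM in egg 2 and 7.33 to 9.16 FPKM in the others. The gene paf1, a subunit of the elongation complex of RNA polymerase II, had 27.1 FPKM in egg 3 and 6.08 to 6.94 FPKM in the others. In these models 4 eggs nearly coincided and the fifth lay 3.60 to 3.90 times above the next. In egg 3 the myeloid leukemia factor mlf1 behaved in the same way, with 27.4 FPKM against 5.51 to 7.30 FPKM. The gene bola3, which matures mitochondrial iron-sulfur proteins, had 31.7 FPKM in egg 4 and 8.96 to 13 FPKM in the others. For egg 1 the further models were commd4 (46.0 FPKM against 12.3 to 16.3), pfdn5, ssu72 and gas8, and for egg 2 c9orf171, ccdc97 (38.1 FPKM against 9.69 to 15.4) and cdipt. For egg 4 they were stk39:osr1, apitd1 (62.4 FPKM against 18.2 to 30.5), abhd17a and abhd17b.

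Genes with a single low egg mostly stood at a few FPKM there, near the limit of the rule. The gene rnps1, an RNA-binding protein of the exon junction complex, had 1.59 FPKM in egg 1 and 26.5 to 45.4 FPKM in the others, and anapc11, the RING subunit of the anaphase-promoting complex, had 4.41 FPKM in egg 1 and 59.5 to 93.3 FPKM in the others. Low in egg 1 were also c1orf52 (1.14 FPKM against 17.96 to 40.7), the adhesion molecule mgc54031:epcam (2.36 FPKM against 18.5 to 43.9) and the protease inhibitor spint1 (1.95 FPKM against 14.5 to 31.1). In egg 2, ubald2 had 1.17 FPKM against 27.4 to 56.5 FPKM, polr2j, a subunit of RNA polymerase II, 1.75 FPKM against 26.7 to 97.4 FPKM, and rab11a, a GTPase of recycling endosomes, 2.07 FPKM against 15.6 to 29.7 FPKM. The phospholipid synthesis gene cept1 had 1.02 FPKM in egg 2 against 11.0 to 29.7 FPKM. A short neurl4 model of 201 bases was at 6.61 FPKM in egg 2 and at 117 to 230.2 FPKM in the others, while the long neurl4 model above did not differ. In egg 2, 3 reads amount to 3.49 FPKM at 498 bases, the length of the ubald2 model, and to 14.9 FPKM at 218 bases. The egg 2 values of ubald2 and of the short neurl4 model therefore rest on fewer than 3 reads. The same holds for polr2j and cept1 in egg 2. In egg 3, nudt6 had 1.39 FPKM against 18.9 to 23.3 FPKM, the DNA repair dioxygenase alkbh2 1.03 FPKM against 12.3 to 14.0 FPKM, cnpy2 1.26 FPKM against 13.3 to 18.4 FPKM, and eif4e, the cap-binding protein, 1.11 FPKM against 10.5 to 16.1 FPKM. A short model of fh, fumarase, had 4.82 FPKM in egg 3 against 66.2 to 131 FPKM. In egg 4, ddt had 1.72 FPKM against 24.8 to 62.0 FPKM and nudt8 2.94 FPKM against 16.7 to 46.6 FPKM. The other models low in egg 4 were b3galt1 (1.39 FPKM against 8.28 to 33.7), the complex I subunit ndufa7 (7.70 FPKM against 31.6 to 87.4) and fah, an enzyme of tyrosine breakdown (2.22 FPKM against 7.21 to 18.8). In egg 5, slc43a2, an amino acid transporter, had 1.97 FPKM against 10.7 to 46.4 FPKM and rap2b 6.18 FPKM against 24.1 to 57.6 FPKM. Also low in egg 5 were mgc81536:nudt4:ac243756.2 (9.23 FPKM against 43.1 to 66.8), fam203a (11.1 FPKM against 35.5 to 97.2) and c15orf63:hypk (9.81 FPKM against 29.7 to 38.8). Fewer than 3 reads also underlie the low values of c1orf52, anapc11 and spint1 in egg 1 and of fh and alkbh2 in egg 3. So it is for ddt in egg 4 and slc43a2 in egg 5, while rnps1 in egg 1 and nudt6 in egg 3 rest on about 3 reads. How far these eggs lie below the others is therefore uncertain. The rule asks for at least 1 FPKM in every egg, so models that were absent from an egg are not among these genes.

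Several classes were high together in egg 3. Over all members, egg 3 was the highest egg in 4188 (32.4%) and the lowest in 3433, against 1678 to 2739 highest in each of the others, while its median deviation from the mean of the other 4 eggs was only 0.02 on the log2 scale. Of the 132 cell cycle members it was highest in 65 (49.2%), of the 57 histone and chromatin members in 28 (49.1%) and of the 29 germ plasm members in 15 (51.7%). Median log2 deviations of egg 3 in these lists were 0.30, 0.33 and 0.40. By role, core and linker histones deviated by 0.62, chromatin proteins and lamins by 0.33 and histone chaperones by 0.12. Germ plasm RNAs deviated by 0.52 and genes of the piRNA pathway by 0.03. The small ribosomal subunit deviated by 0.40 and the large subunit by 0.05. The summed level of the cell cycle members was 10240, 10895, 14463, 10879 and 9909 FPKM in eggs 1 to 5, so that eggs other than egg 3 lay between 9909 and 10895 FPKM. The 2-fold limit was passed by 4 cell cycle members above (3.03%) and 5 below (3.79%) in egg 3, shares close to the 2.59 and 4.88% of all members.

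Other classes went the opposite way in egg 3 or did not move. Chaperones were lowest in egg 3 in 23 of 47 members (48.9%, against 26.6% of all members) and highest in 6 (12.8%, against 32.4%), with a median log2 deviation of -0.19, and the ligands and receptors of the patterning list deviated by -0.35. The summed level of the chaperones did not show this, at 2191, 2128, 2103, 2048 and 2052 FPKM in eggs 1 to 5. DNA replication (0.04), translation factors (0.02) and the patterning list as a whole (0.00) deviated little. The deviation followed abundance and length over all members. Of 10 equal bins of members by mean FPKM, egg 3 was highest in 23.8% of the lowest bin and in 48.9% of the highest bin, which starts at 71.3 FPKM. Of 10 such bins by length, it was highest in 36.9% of the shortest and in 31.0% of the longest. The cell cycle, histone and germ plasm lists had median percentiles of 76.7, 67.0 and 74.0, and the part of abundance, length and the lower depth of egg 3 in their deviation was not tested. Among the 7420 members with a mean of at least 10 FPKM and at least 100 reads summed over the eggs, egg 3 stood at least 2-fold above each other egg in 168 (2.26%) and below in 286 (3.85%).

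**Figure D5:**
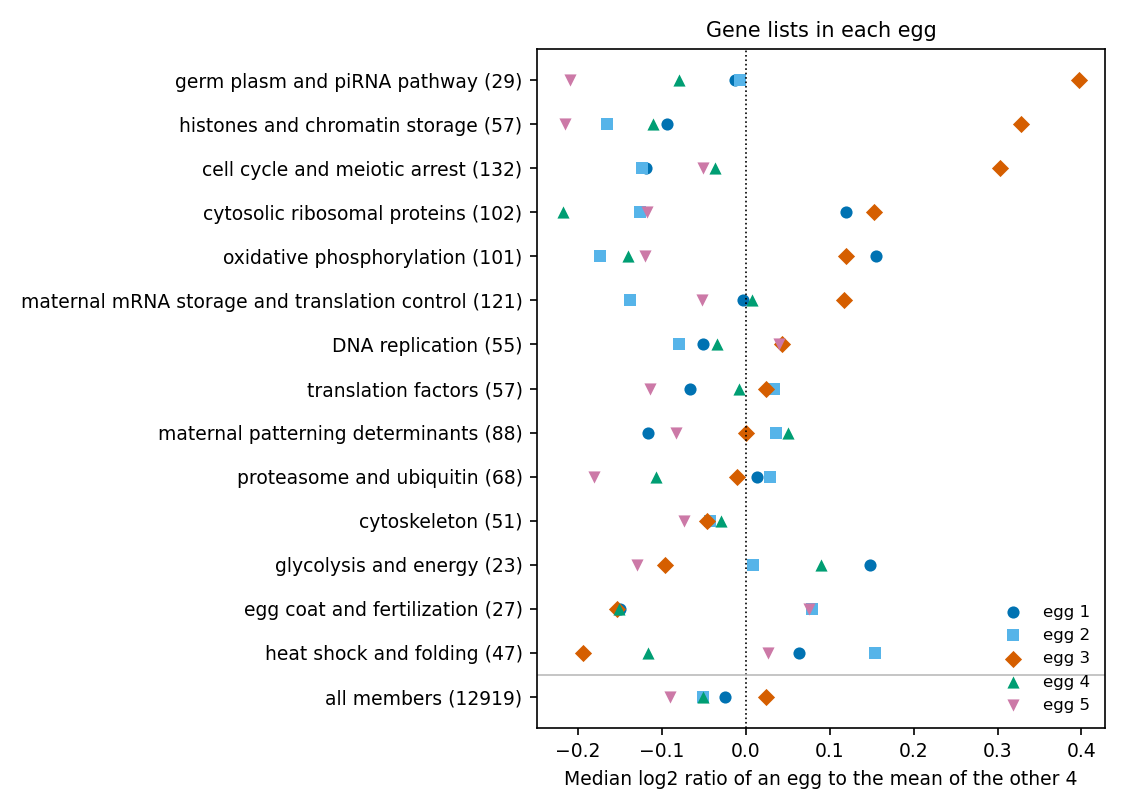
Median log2 ratio of each egg to the mean of the other 4 eggs, with a row for each gene list (number of members in brackets) and for all members, and a symbol for each egg. Egg 3 (orange diamonds) lies furthest to the right for germ plasm (0.40), histones (0.33) and cell cycle (0.30) and furthest to the left for chaperones (-0.19), and the ribosomal list lies at 0.12 in egg 1 and at -0.22 in egg 4.

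In the other eggs the median shift of a whole list stayed within 0.22 on the log2 scale, and the widest shift by role was that of histones in egg 5. Core and linker histones deviated there by -0.50, or -0.46 after median-of-ratios scaling, with egg 5 the lowest in 6 of 11 members (54.5%), against 17.4% of all members, and the highest in none. The abundant hist1h3g model given above was at 1119.7 FPKM in egg 5 and at 1749.8 to 2432 FPKM in the others. A second hist1h3g model had 266, 209, 162, 304 and 71.6 FPKM in eggs 1 to 5, and a hist1h2aa model of 595 bases had 34.4, 18.5, 38.7, 45.2 and 11.1 FPKM, both lowest in egg 5 and highest in egg 4. The histone list as a whole deviated by -0.22 in egg 5 and the germ plasm list by -0.21. Over all members, egg 5 deviated by -0.25 in the shortest of the 10 bins by length and by -0.19 in the highest by mean FPKM. The part of length and abundance in these egg 5 shifts was not tested. Nuclear genes of oxidative phosphorylation deviated by 0.16 in egg 1 and 0.12 in egg 3 and by -0.17, -0.14 and -0.12 in eggs 2, 4 and 5. Ribosomal proteins had the same signs, at 0.12 and 0.15 in eggs 1 and 3 and at -0.13, -0.22 and -0.12 in eggs 2, 4 and 5. Egg 1 was highest in 33 of the 101 oxidative phosphorylation members (32.7%, against 21.2% of all members), and egg 3 in 34 (33.7%), close to its 32.4% of all members. Egg 4 was lowest in 35 of the 102 ribosomal members (34.3%, against 15.1% of all members). Both classes stood above the 90th percentile at the median. The highest of the 10 bins of all members by mean FPKM had the same signs, at 0.04, -0.11, 0.24, -0.08 and -0.19 in eggs 1 to 5. The part of abundance in the deviation of these classes was not tested. The glycolysis and energy list deviated by 0.15 in egg 1 and -0.13 in egg 5.

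Egg 5 stood apart most through a handful of models, most of them short. The 5 models with the most reads in egg 5 were the unnamed model of 109 bases, the unnamed model of 407 bases labelled ybx1 in the gene model file, gmfb, a model with 6 names, and an unnamed model of 909 bases. The gene gmfb, named for glia maturation factor beta, had 324786 FPKM in egg 5 and 934, 1020.1, 4671 and 2753 FPKM in eggs 1 to 4, a ratio of 69.5 to the next egg. The model dnaja3:rfwd2:actc1:hdlbp:rhoc:prdm9 had 149141 FPKM in egg 5 and 433, 732, 1494 and 1049 FPKM in the others (99.8-fold). The unnamed model of 909 bases, on scaffold 000000939 (5547358 to 5548299), had 55181 FPKM in egg 5 and 110.0, 118, 475 and 390.4 FPKM in the others. An unnamed model of 468 bases overlaps it (5547422 to 5550943) and was lowest in egg 5, with 722, 337, 1428, 247 and 138 FPKM in eggs 1 to 5. How reads were divided between these overlapping models was not tested. In the authors' merged profile of the eggs the model of 909 bases is listed at 0 FPKM, as is a dnaja3 model of 407 bases. For these models the value of egg 5 has no counterpart there. The same profile has gmfb at 89012 FPKM and the 6-name model at 40765 FPKM, each above its values in eggs 1 to 4. The unnamed model of 109 bases is at 980896 FPKM there and the one labelled ybx1 at 59245 FPKM, also above eggs 1 to 4. In gmfb, the 6-name model and the model of 909 bases the order of the eggs was the same, with egg 5 first, then eggs 3, 4, 2 and 1. The dnaja3 model had 1193 FPKM in egg 5 and 10.9 to 28.8 FPKM in the others. The gmfb model and both dnaja3 models carry no name in the gene model file, so the identity of these transcripts rests on a single label. The members standing above in egg 5 numbered 26, of which c16orf52 (89.8 FPKM against 33.7 to 42.6) and dffa (24.5 FPKM against 9.30 to 11.8), an inhibitor of the apoptotic nuclease, were the further named and well covered ones, and without egg 5 the 100 most abundant members held 46.9% of the summed FPKM.

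Models that share a name had the same highest egg in some pairs and not in others. Xenopus laevis is allotetraploid, and many genes have a pair of models. Among members of the 14 lists, at any level of coverage, 249 names were carried singly by exactly 2 models. In 96 of these pairs (38.6%) the highest egg was the same, and in 44 of these it was egg 3. Over all members, a given egg was the highest in 12.99 to 32.4%, which is a share of single models and not of agreeing pairs. The sign of the deviation of egg 3 was shared in 150 of the 249 pairs (60.2%). How often models of different names share a highest egg or this sign was not tested. Among the cell cycle genes, a ube2c model of 556 bases, for the ubiquitin-conjugating enzyme of the anaphase-promoting complex, had 185, 218, 679.8, 289 and 283 FPKM, while a ube2c model of 823 bases had 117, 99.1, 8.93, 121 and 48.4 FPKM, so the first was highest and the second lowest in egg 3. Reads of 42 bases can be shared between such models, and how they were divided was not tested.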

How the data were processed

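The deposited values are FPKM of 54110 gene models in 5 single eggs, each model a single transcript per locus. The authors mapped single-end reads of 42 bases to JGI 7.1 and computed FPKM with Cufflinks 2.1.1; the submitters' processing notes also list CASAVA 1.8.2 and SAMtools 0.1.18. FPKM of short models rests on a short effective length and is less certain.

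Members had at least 1 FPKM in all 5 eggs. Reads were recovered as FPKM times effective length (fragments of mean 200 and SD 80 bases) in steps worth 1 read, and 88.6 to 91.8% of values below 20 reads were whole within 0.1. The CV is the SD over the mean, and the counting CV comes from these reads. A deviation is the log2 ratio of an egg to the mean of the other 4. A percentile is the rank of the mean FPKM among members. A model belonged to a list when all its names did, and "na" alone counted as no name. The gene model file gave positions and second names. No test was run, since there is 1 group. Calls on simulated counts with known changes were checked first. Python 3.11.15, numpy 2.4.6, pandas 2.3.3, scipy 1.17.1 and matplotlib 3.10.9 were used.

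The members and lists were chosen with earlier results of these data known. Named are the 25 named members of at least 500 bases with the highest mean. With them are the 4 highest members of each list and the 2 lowest of lists described in depth. Also named are the 5 with the largest ratio of each egg to the nearest other egg in each direction, and the 10 of lowest and highest CV. The ratio and CV groups were taken among members of mean at least 10 FPKM and at least 100 reads summed over the eggs. Other genes are named to fill out a list and were chosen after their values were seen. A gene model that the rule names is not reported here. Alternatives changed the filter, length limit, unit, profile, scaling, pseudocount (1 and 0.1), fold (1.5 and 3) and eggs used. The median over eggs, any of several names and the names of the gene model file were added after seeing the data. No per-sample column of unknown origin was used, and sequences are not used here.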

Additional observations from a re-analysis of the deposited data

Results flagged for a closer look

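In the values of the 5 eggs, 31 of the 150 gene models named by rule had a highest or lowest egg whose gap to the next exceeded 0.71 of the range over all eggs. Chance alone flags about 1 group in 20, and 1057 of all members (8.18%) met the same limit, so single entries carry little weight. The gap is given below as a share of the range.

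Egg 5 was the high egg for dnaja3:rfwd2:actc1:hdlbp:rhoc:prdm9 (0.993), gmfb (0.988), dnaja3 (0.985), c16orf52 (0.841) and dffa (0.833), and for the summed FPKM of all members (0.916). Egg 3 was the high egg for mkrn3 (0.716), plin2:loc494638 (0.877), ccnb1 (0.832), h3f3b:h3f3a (0.792), slbp (0.82), ddx25 (0.937), zp3 (0.811), ubb (0.802), hspe1 (0.734), paf1 (0.959), smim14 (0.89), znf706 (0.837) and mlf1 (0.918), and for the summed FPKM of the cell cycle list (0.784). It was the low egg for hspa8 (0.785), nudt6 (0.802) and alkbh2 (0.872). Egg 1 was high for pnpla3 (0.961) and commd4 (0.881). Egg 2 was high for pck2 (0.929), cyb5b (0.746), c9orf171 (0.854), ccdc97 (0.8) and hes4 (0.727) and low for the zar1l model of 1230 bases (0.766). Egg 4 was high for bola3 (0.821) and apitd1 (0.72). The models of the largest ratio to the nearest other egg were partly named for standing apart, so their place here follows from the rule.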

How the results depend on the processing

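No paired analysis was possible because the eggs form 1 group with no contrast and no test was run. Of 52 alternatives to the main results, 44 kept the value within the limits set, and 272 of 336 did so for single genes and lists. A filter of 5 FPKM left 8131 members. The share of summed FPKM in the 100 most abundant members (55.9%) was 17% for models of at least 500 bases and 18.9% of recovered reads. The share held by the 14 lists (9.95%) was 15.7% for models of at least 500 bases. The count of members with 1 egg apart (1757) was 1166 for ratios of FPKM + 1, 808 at a mean of at least 10 FPKM, 4688 at 1.5-fold and 477 at 3-fold. Leaving out each egg in turn gave 13063 to 14003 members, 46.9 to 60.5% for the 100 most abundant, 9.38 to 12.0% for the lists and a median CV of 21.5 to 33.7% for the named models (33.3% with all eggs), lowest without egg 3, though some of these models were named for an egg that stands apart. All 14 lists had a median percentile above 50, and 12 did at 5 FPKM. In scaled values egg 3 deviated by 0.25 for cell cycle, 0.28 for histones, 0.35 for germ plasm and -0.24 for chaperones. Depth limits mostly members near 1 FPKM and short models in their low egg, where a few reads make up a value.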
